A study of Danio rerio with 6 samples.

Results

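The 3 wildtype libraries are described here, of 6 libraries sequenced in all. Each was made from the polyadenylated RNA of cd41-positive cells isolated from zebrafish (Danio rerio) at 40 hours post fertilization, and they were chosen by their genotype label alone. They are called wildtype 1, wildtype 2 and wildtype 3, and values of a gene are given in that order. The library names carry cd41gfp, a green fluorescent protein reporter named after cd41, and the labels call the source hematopoietic stem and progenitor cells. The reporter line, the sorting gate, the number of embryos and whether the replicates came from separate clutches are not given in the sources used here. The mutant libraries were not used, and with 1 group there is no test between groups.

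cd41 is the older name of itga2b, which encodes the αIIb subunit of the integrin that lets thrombocytes, the fish counterpart of platelets, bind fibrinogen. In zebrafish embryos a cd41 reporter marks both thrombocytes and the stem and progenitor cells that emerge from the floor of the dorsal aorta and then seed the caudal hematopoietic tissue. The emergence of these cells needs the transcription factor runx1, and their later maintenance needs myb. At this age the embryo also holds primitive erythrocytes, neutrophils and macrophages that arose earlier, from other precursors.

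The libraries held 17639699, 17001423 and 17175260 counts on genes, and levels are given as CPM, a gene's counts after scaling the library total over all genes to 1000000. A level of 3 counts corresponded to 0.170, 0.176 and 0.175 CPM. Of 32105 genes, 17276 reached a mean of 1 CPM, 14424 reached 1 CPM in every library, and 5877 had no count in any. Levels of different genes are compared only as CPM per kb of annotated exon length, on which scale the median of the 17276 expressed genes was 4.21. The libraries did not agree equally well, and wildtype 1 stood apart. Across the expressed genes, Pearson's r of log2(CPM + 1) was 0.946 between wildtype 2 and 3, against 0.897 between wildtype 1 and 2 and 0.877 between wildtype 1 and 3. A part of the descriptions below therefore rests on which library is read, and values are given for each. In these bulk samples fewer cells of a type and less RNA per cell cannot be told apart.

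The blood genes among the most abundant transcripts were those of neutrophils, and no defining stem cell or thrombocyte gene was among the first 20. Behind the mitochondrial ribosomal RNAs mt-rnr2 and mt-rnr1 and the gene zgc:158463 (chromosome 5, 825789 to 827000, GRCz10), lyz ranked 4 both by CPM and by CPM per kb. lyz (chromosome 24, 23890689 to 23893626) encodes lysozyme, the antibacterial enzyme of neutrophil and macrophage granules. It stood at 13841, 25126 and 24727 CPM, a mean of 21231 ± 6403 (SD, n = 3), and the library of lowest level, wildtype 1, lay apart from the other two. npsn, which encodes an astacin-type protease of neutrophils, stood at 3190, 7800 and 6307 CPM. EPX, an orthologue symbol of the granule peroxidase family, stood at 1473, 3547 and 2819 CPM, also lowest in wildtype 1.

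Genes of tissues outside the blood were in the same top group. krt4, a keratin of the embryonic skin surface, stood at 6053, 7079 and 8899 CPM. he1.1, which encodes an enzyme that the hatching gland releases to soften the egg envelope, stood at 7515, 698 and 2667 CPM, a 10.8-fold range between libraries. A gene with no symbol on chromosome 2 (ENSDARG00000104814, 7684712 to 7693267) had 9942, 2053 and 376 CPM, a 26.4-fold range. On the CPM per kb scale these last 2 genes ranked 13 and 7, and both were highest in wildtype 1.

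The remaining leading genes were of general cell function. By mean CPM the first 20 also held both cytoplasmic actins actb2 and actb1, the actin monomer binding tmsb4x, the elongation factor eef1a1l1, the chaperones HSPA8 (ENSDARG00000068992), HSP90AB1 and hsp70l, the nuclear long noncoding RNA malat1 and the cytochrome oxidase subunits MT-CO1, MT-CO2 and MT-CO3. Ranking per kb kept 14 of the 20 and added short genes, among them RPS7, RPL35 and rplp2l of the ribosome. Mitochondrial genes took 27.6%, 23.5% and 21.3% of the counts, 24.1% ± 3.18 (SD, n = 3). Most of this was the 2 ribosomal RNA genes mt-rnr1 and mt-rnr2, which together took 25.8%, 21.1% and 19.3% of the counts. The share thus says little of the mitochondrial protein-coding genes. zgc:158463 took 4.55%, 7.14% and 4.67%. Unnamed genes of 168, 87 and 154 bases lie on each side of it. Those of 168 bases, ENSDARG00000087337 and ENSDARG00000087953, ranked 6 and 17 per kb. Whether these are repeated copies that share reads was not tested. The widest 95% Wilson interval spanned 0.0417 percentage points for the mitochondrial share and 0.0245 for zgc:158463, which covers counting error only.

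**Figure D1:**
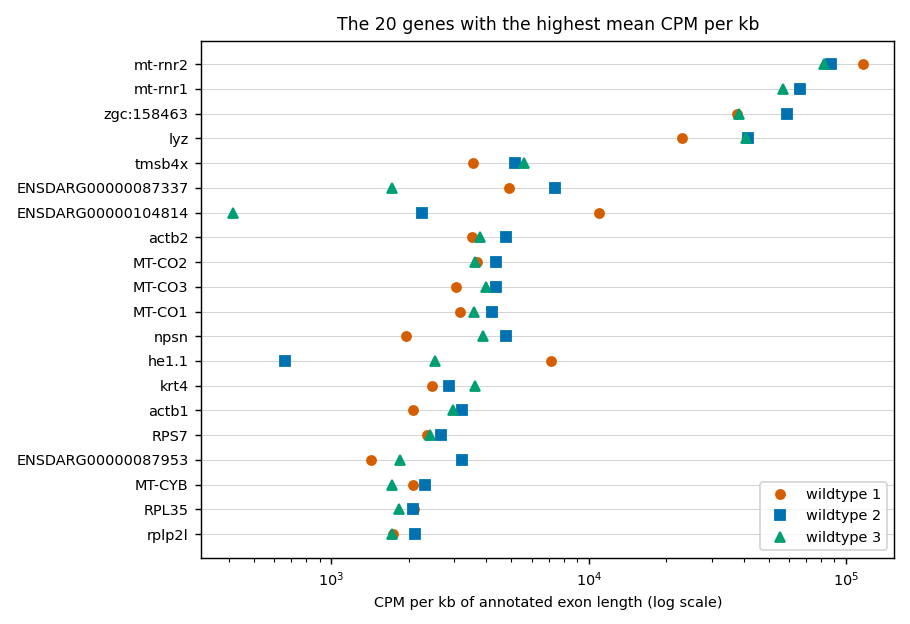
CPM per kb of annotated exon length (log axis) of the 20 genes with the highest mean, with 1 point per wildtype library. The 3 points lie close together for most genes, while he1.1 and ENSDARG00000104814 range 10.8-fold and 26.4-fold, with wildtype 1 highest.

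The 5 genes taken here as defining markers of the cells were all detected, and they spanned a wide range. MYB (chromosome 23, 31888892 to 31903512), the transcription factor of definitive blood progenitors, led at 109, 208 and 177 CPM. On the CPM per kb scale it stood at 49.6 ± 15.2 (SD, n = 3), higher than 94.4% of expressed genes. Its counts of 1924, 3528 and 3045 put wildtype 1 (95% exact Clopper-Pearson interval 104 to 114 CPM) below wildtype 2 (201 to 214) by more than counting error.

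itga2b, the gene behind the name of the sort (chromosome 3, 21219961 to 21251943), was the lowest of the 5. It had 61, 19 and 31 counts, or 3.46, 1.12 and 1.80 CPM, with exact Clopper-Pearson intervals of 2.65 to 4.44, 0.673 to 1.75 and 1.23 to 2.56 CPM. Wildtype 1 was therefore the highest of the 3 for itga2b, against the order of the other 4 markers, each of which was lowest there. At 0.566 ± 0.320 CPM per kb (SD, n = 3), only 6.27% of expressed genes were lower.

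The other 3 markers lay between. mpl, which encodes the thrombopoietin receptor, stood at 9.13, 22.4 and 15.0 CPM and at 6.57 ± 2.82 CPM per kb. RUNX1 had 21, 43 and 78 counts, or 1.19, 2.53 and 4.54 CPM, and its 6.09 ± 3.73 CPM per kb rests on an annotated exon length of only 452 bases. gata2b, the GATA factor of the hemogenic endothelium, stood at 2.15, 4.35 and 5.30 CPM and at 2.01 ± 0.825 CPM per kb. On the per kb scale MYB was first and gata2b and itga2b were the last in each library, while RUNX1 and mpl, whose means differ by less than their SDs, changed places in wildtype 3. The data thus go only in part with the label of stem and progenitor cells, and the samples are called only the wildtype libraries here.

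Of 25 entries in a list of blood stem and progenitor genes, 22 were matched and all 22 reached a mean of 1 CPM. Their median of 6.81 CPM per kb compares with 4.21 for all expressed genes. ptprc, which encodes the pan-leukocyte phosphatase CD45, led the list per kb, at 293, 408 and 359 CPM and 82.3 ± 13.5 CPM per kb. FLI1, an ETS factor shared by blood and vessels, stood at 51.6, 108 and 124 CPM. CBFB, which encodes the partner protein of the RUNX factors, stood at 86.2, 139 and 108 CPM. All 3 genes were lowest in wildtype 1.

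Factors of the early blood program were present at moderate levels. LMO2, the bridging protein of the TAL1 complex, stood at 10.7, 19.5 and 34.8 CPM, and TAL1 itself at 7.03, 15.3 and 13.0 CPM. GFI1B, a repressor active in erythroid and thrombocyte precursors, stood at 22.4, 32.5 and 26.7 CPM. IKZF1, a zinc finger factor of lymphoid and myeloid progenitors, had the widest range of the 22, at 10.8, 58.6 and 37.1 CPM, which is 5.42-fold. KIT, the receptor of stem cell factor, stood at 38.3, 37.1 and 49.0 CPM, and ERG, the ETS factor of stem cells and endothelium, at 6.52, 6.18 and 8.38 CPM.

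In this list 17 of 22 genes were lowest in wildtype 1, where 36.7% of all expressed genes were lowest. The summed level was 758, 1182 and 1128 CPM, of which the pan-leukocyte gene ptprc made 34.5%. Without ptprc the sums were 466, 774 and 769 CPM. Exceptions were GATA2, at 20.8, 8.88 and 10.8 CPM, which was highest in wildtype 1, as well as KIT, ERG, hlfa and gfi1aa, which were not lowest there. With the mitochondrial counts left out of the totals the number was 16, where 32.2% of expressed genes were lowest. With TMM factors it was 19, where 38.1% were.

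**Figure D2:**
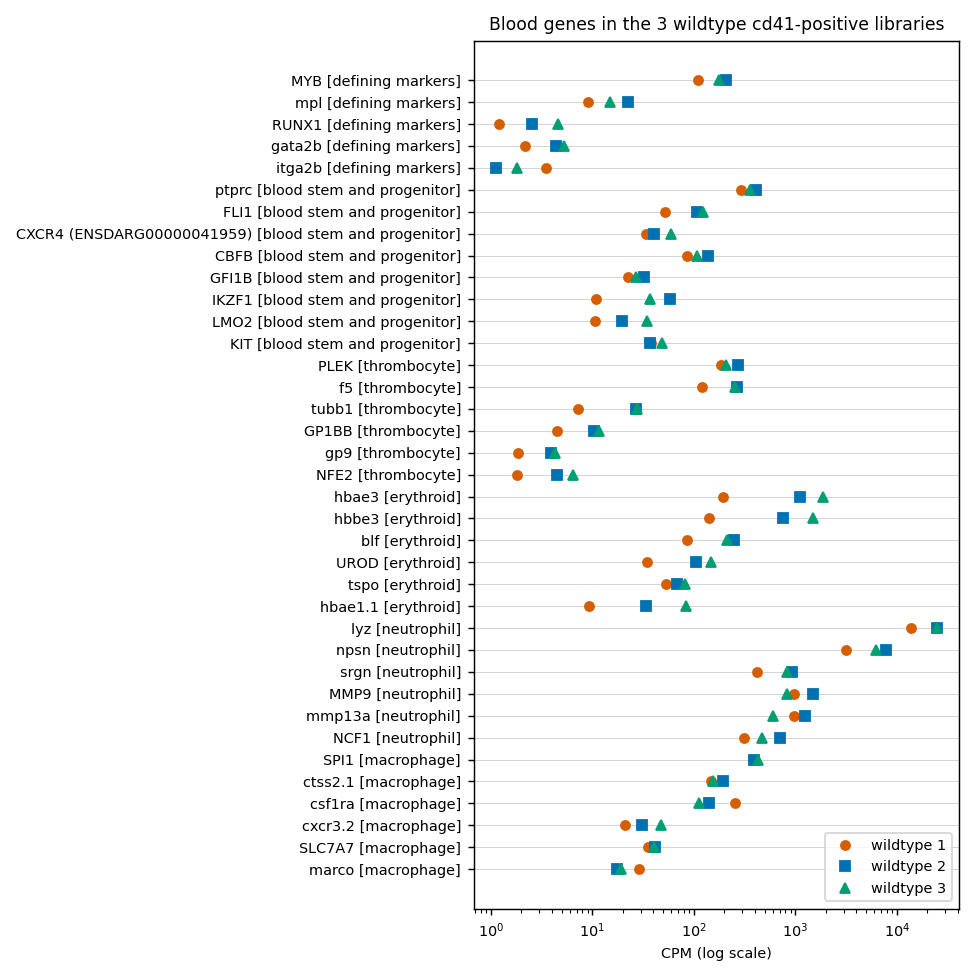
CPM (log axis) of blood genes in wildtype 1, 2 and 3, with the list of each gene in brackets. MYB stands well above the other defining markers, lyz and npsn lie at the right, and the erythroid genes show the widest spread with wildtype 1 lowest.

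Thrombocyte genes were detected, at levels that differed widely between members. All 10 matched genes of 13 entries reached 1 CPM, with a median of 3.68 CPM per kb, slightly below that of all expressed genes. The entries itgb3b and fermt3b are not in this median, because both copies of each gene carry one symbol. The ITGB3 copies stood at 27.9 and 4.58 CPM per kb and the FERMT3 copies at 31.3 and 25.7, all above it. PLEK, which encodes pleckstrin, a kinase C substrate of platelets and also of leukocytes, led per kb, at 188, 274 and 206 CPM. f5, which encodes coagulation factor V, stood at 120, 266 and 255 CPM. Matched members closer to the thrombocyte surface and skeleton were lower. tubb1, the β-tubulin of the platelet rim in mammals, stood at 7.26, 27.2 and 27.4 CPM.

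GP1BB and gp9, which encode parts of the receptor for von Willebrand factor, stood at 4.48, 10.5 and 11.8 CPM and at 1.87, 3.88 and 4.31 CPM. NFE2, the transcription factor of late megakaryocytes in mammals, stood at 1.81, 4.53 and 6.40 CPM. vwf had 3, 81 and 44 counts, or 0.170, 4.76 and 2.56 CPM, so that in wildtype 1 it was at the limit of 3 counts. Of the 10 genes, 9 were lowest in wildtype 1 under every scaling, against 36.7% of expressed genes, and the exception was itga2b. PLEK and f5 made most of the summed level of 337, 617 and 538 CPM, PLEK alone 44.8% of it.

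Erythroid genes showed the widest range between libraries among the blood lists. Their summed level was 792, 3166 and 5342 CPM over 21 matched genes of 24 entries, a 6.75-fold range. hbae3, an embryonic α-globin, stood at 194, 1125 and 1871 CPM, and hbbe3, an embryonic β-globin, at 141, 757 and 1481 CPM. Without hbae3 the range of the summed level was still 5.80-fold. alas2, the first enzyme of heme synthesis in red cells, followed the same order at 16.2, 77.0 and 159 CPM.

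The regulators gata1a and klf1 were also lowest in wildtype 1, but only klf1 differed clearly between wildtype 2 and 3. gata1a, the master regulator of red cell formation, stood at 3.63, 21.4 and 22.0 CPM. klf1, which acts with it on globin genes, stood at 2.15, 13.5 and 23.7 CPM, an 11.0-fold range. Of the 21 genes, 19 were lowest in wildtype 1, against 36.7% of expressed genes, and 19 were highest in wildtype 3, against 41.4%. SLC25A37, the mitochondrial iron importer, departed from this at 65.6, 69.9 and 65.2 CPM. blf was highest in wildtype 2 instead of 3, at 85.8, 246 and 211 CPM. With TMM factors 20 were lowest in wildtype 1, where 38.1% of expressed genes were, and 17 highest in wildtype 3. All globins together, 14 genes, took 0.0612%, 0.326% and 0.562% of the counts, and near-identical globin copies may share reads, so single copies are uncertain.

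Neutrophil genes had the highest median of the blood lists, 305 CPM per kb over 9 matched genes of 12 entries. Beyond lyz and npsn these included srgn, which encodes the granule proteoglycan serglycin, at 420, 920 and 831 CPM. The collagenase and gelatinase genes mmp13a and MMP9 stood at 972, 1256 and 609 CPM and at 970, 1502 and 822 CPM. NCF1, a cytosolic part of the NADPH oxidase that makes bactericidal superoxide, stood at 309, 714 and 474 CPM. CSF3R, the receptor of the neutrophil growth factor G-CSF, stood at 143, 190 and 189 CPM.

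Every one of the 9 neutrophil genes was highest in wildtype 2, where 20.4% of all expressed genes were highest, and this held under each scaling tried. In wildtype 1, 7 of the 9 were lowest, against 36.7% of expressed genes, the exceptions being mmp13a and MMP9, which were lowest in wildtype 3. The summed level of 20195, 38087 and 34444 CPM was mostly lyz, at 68.7% of it. Genes shared by leukocytes went the same way. All 13 matched pan-leukocyte genes were lowest in wildtype 1 under each scaling, against the same 36.7%, among them CORO1A, an actin regulator, at 557, 1065 and 950 CPM, with ptprc also in that list. Housekeeping genes had this order too, so a low level in wildtype 1 was not particular to the blood lists. Of 12 housekeeping genes 10 were lowest in wildtype 1, against 36.7% of expressed genes, or 8 without mitochondrial counts, against 32.2%. In wildtype 2, 8 of the 12 were highest, against 20.4%. The sums of all 12 genes, 20252, 27281 and 23829 CPM, ranged 1.35-fold.

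Myeloid transcription factors had a median of 33.0 CPM per kb over 9 genes, and several ranged little. SPI1, which encodes PU.1, stood at 387, 391 and 429 CPM and 170 ± 9.78 CPM per kb (SD, n = 3), one of the closest agreements among the blood genes. CEBPA, the factor of granulocyte commitment, stood at 143, 175 and 216 CPM. CEBPB, the factor of stress granulopoiesis in mammals, stood at 101, 307 and 320 CPM. Of the 9 genes in the list, 6 were lowest in wildtype 1, where 36.7% of expressed genes were, and 5 without mitochondrial counts, where 32.2% were.

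Macrophage genes had a lower median than those of neutrophils. Of 13 matched genes, 10 reached 1 CPM, and the median over all 13 was 11.7 CPM per kb. Besides SPI1, the cathepsin gene ctss2.1 stood at 146, 196 and 155 CPM, and the scavenger receptor marco at 28.8, 17.7 and 19.0 CPM. IRF8, the factor that macrophage formation needs, stood at 20.8, 13.2 and 18.4 CPM. The complement genes c1qa and c1qb stayed under 2 CPM in every library. The summed level was close in the 3 libraries, 939, 861 and 879 CPM, and which library was highest or lowest changed with the scaling. SPI1 made 45.1% of it, and without SPI1 the sums were 552, 470 and 450 CPM. csf1ra, listed also among the xanthophore genes below, is a member at 255, 141 and 113 CPM.

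Lymphoid genes were near the detection limit. Of 8 matched genes, only lck, cd79a and PAX5 reached a mean of 1 CPM, and lck, which encodes a kinase of T cells, led per kb, at 6.63, 3.47 and 5.41 CPM. RAG1, whose product cuts antigen receptor genes, had 1, 0 and 0 counts, and a count of 0 allows up to 0.176 CPM in wildtype 2. Of the endothelial genes 16 of 18 reached 1 CPM, with a median over all 18 of 1.08 CPM per kb, below that of all expressed genes. cdh5, the cadherin of endothelial junctions, stood at 7.60, 9.12 and 35.7 CPM, and kdrl, a VEGF receptor, at 3.0, 3.47 and 8.33 CPM. Both were highest in wildtype 3, as were 10 of the 16 genes, where 41.4% of all expressed genes were highest.

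Receptors and adhesion genes bear on how these cells are addressed in the embryo. Beside CSF3R, the macrophage colony-stimulating factor receptors csf1ra and csf1rb stood at 255, 141 and 113 CPM and at 63.0, 160 and 226 CPM, in opposite orders over the libraries. csf1ra also belongs to the xanthophore genes described further on, which share its order. itgb2, which encodes the leukocyte β2 integrin, led the integrin list per kb, at 219, 432 and 439 CPM. ITGA4, which encodes the α4 integrin subunit, stood at 110, 61.0 and 49.9 CPM.

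The zebrafish genome keeps many duplicated genes, and 14 of 16 pairs among the blood, integrin, actin and signalling genes could be told apart in the table, several of them only by identifier because both copies carry one symbol. For those it is not stated which copy is a and which is b. In 11 of these the same copy was higher per kb in all 3 libraries. The widest ratios were those of KIT to kitb, 11.7 ± 1.85 against 0.599 ± 0.405 CPM per kb (19.5-fold), and of the CXCR4 copies ENSDARG00000041959 and ENSDARG00000057633, 26.8 ± 8.19 against 1.41 ± 1.01 CPM per kb (19.0-fold). CXCR4 is the receptor that holds progenitors in CXCL12-rich niches. SPI1 exceeded spi1a 5.42-fold. ITGB3 is the symbol of the β partner of the αIIb subunit, and its copy ENSDARG00000056767 exceeded ENSDARG00000045070 6.09-fold.

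GATA2 exceeded gata2b 2.27-fold in the means, but 6.38-fold in wildtype 1 and 1.35-fold in both other libraries. For csf1ra and csf1rb, GFI1 and gfi1aa, and the FERMT3 copies, the higher copy depended on the library. csf1ra exceeded csf1rb 7.74-fold in wildtype 1 and lay below it in wildtype 3, at a ratio of 0.951.

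Skin genes were abundant in every library. All 14 listed genes reached 1 CPM, with a median of 185 CPM per kb and summed levels of 10642, 11180 and 14286 CPM, of which krt4 made 61.0%. cldni, a claudin of the epidermis, stood at 368, 473 and 522 CPM, and epcam, an adhesion molecule of epithelia, at 384, 263 and 383 CPM. TP63, the transcription factor of basal epidermis, stood at 47.2, 83.9 and 157 CPM. The sum was highest in wildtype 3 under each scaling, while the lowest library was wildtype 2 instead of 1 once mitochondrial counts were left out.

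Hatching gland genes were high, with a wider range. The 4 matched genes summed to 10230, 1079 and 4183 CPM, a 9.48-fold range, and all 4 were lowest in wildtype 2, as were 40.4% of expressed genes. he1.2 stood at 2279, 309 and 1293 CPM, and ctslb, a cathepsin of the gland, at 406, 50.5 and 187 CPM. he1.1 and he1.2 overlap on chromosome 22, so their reads cannot be separated with confidence. klf17, a transcription factor of the gland, ranged less, at 31.0, 21.5 and 35.1 CPM.

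Pigment and neural crest genes had the widest range of the 34 lists, 25.6-fold, at 5982, 1103 and 234 CPM. gch2, the enzyme that opens pteridine synthesis in yellow pigment cells, stood at 5833, 1062 and 210 CPM and made 97.1% of the sum, so without it the range was 6.46-fold. SOX10, the neural crest transcription factor, stood at 54.9, 11.8 and 1.69 CPM. FOXD3 had no count in any library. The melanophore gene pmela differed little, at 5.22, 4.59 and 5.01 CPM, but other pigment genes of the list ranged more. TYR ranged 10.1-fold and SLC45A2 9.44-fold, both highest in wildtype 1, as was MLPH, with 189, 22 and 2 counts. OCA2 was highest in wildtype 3, with a 2.22-fold range. Of the 9 expressed members, 7 were highest in wildtype 1, against 38.2% of expressed genes, and 2 in wildtype 3, against 41.4%. MLPH reached a mean of 1 CPM only through wildtype 1, its mean over wildtype 2 and 3 being 0.705 CPM.

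Genes of neurons and retina were highest in wildtype 1. All 10 expressed neuron genes were highest there, against 38.2% of expressed genes, and so were all 8 expressed retina genes, under every scaling. The retina genes crx and atoh7 reached a mean of 1 CPM only through wildtype 1, so their place was set by the filter. Their means over wildtype 2 and 3 were 0.408 and 0.234 CPM. ELAVL3 and ELAVL4, RNA-binding proteins of neurons, stood at 199, 62.4 and 61.0 CPM and at 122, 7.76 and 12.2 CPM. VSX1, a factor of retinal bipolar cells, stood at 37.1, 2.0 and 0.990 CPM. gap43, a growth cone gene, had no count.

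Matrix genes were abundant in all libraries and highest in wildtype 3 in 8 of 9 cases, against 41.4% of expressed genes. col1a1a and COL1A2, the chains of type I collagen, stood at 1058, 1855 and 2472 CPM and at 587, 1046 and 1320 CPM. DCN, which encodes decorin, a collagen-binding proteoglycan, stood at 121, 265 and 386 CPM. Other tissues were low. Of 5 matched pronephros genes 3 reached a mean of 1 CPM, and the list summed to 20.7, 3.76 and 4.66 CPM. Muscle genes summed to 102, 66.4 and 109 CPM and liver and gut genes to 124, 90.1 and 135 CPM, with the highest library changing with the scaling. MYL7 of the heart, CRYAA of the lens and fabp10a of the liver had no count in any library. Other members of these lists were detected. myh6 of the heart had 72, 27 and 129 counts. In the lens list, lim2.1 had 61, 39 and 72 counts and CRYBA4 26, 60 and 72. Of 5 matched lens genes 3 reached a mean of 1 CPM, and 1 of 3 heart genes.

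**Figure D3:**
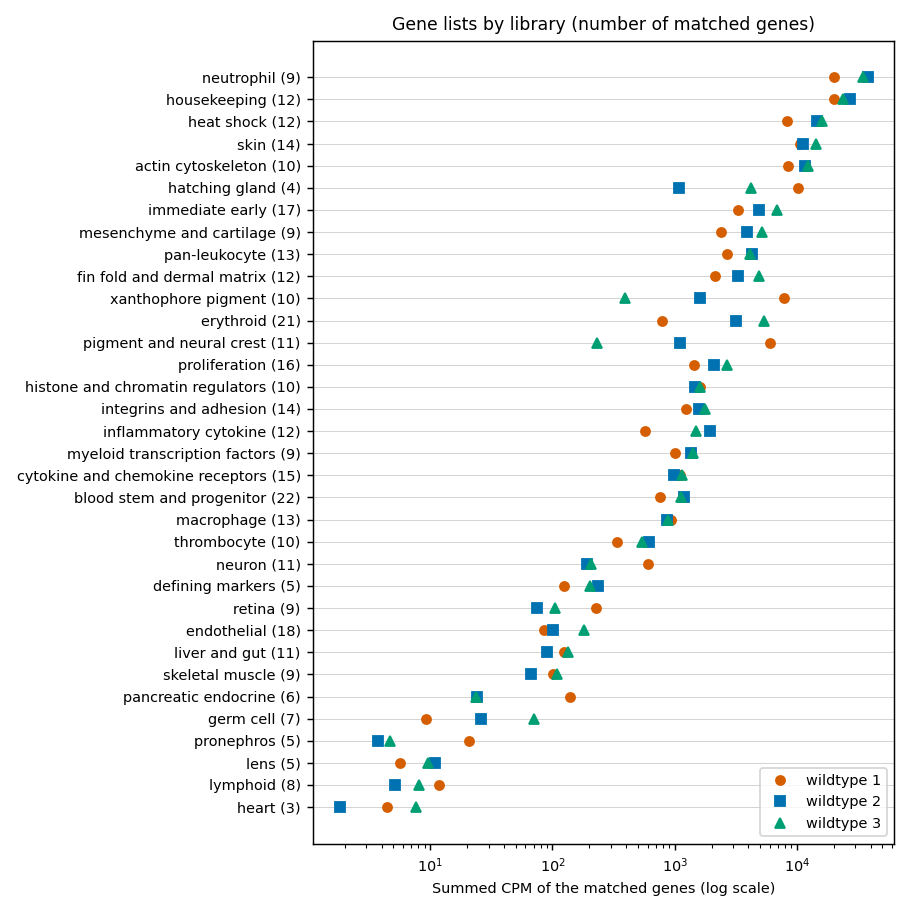
Summed CPM (log axis) of the matched genes of each list, with the number of genes in brackets and 1 point per wildtype library. Neutrophil and housekeeping sums lead, and lyz alone makes 68.7% of the neutrophil sum. The pigment and neural crest (25.6-fold), xanthophore pigment (19.7-fold), hatching gland (9.48-fold) and erythroid (6.75-fold) lists show wide spreads. Both pigment lists hold gch2, which makes most of each sum.

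Genes of the cell cycle were lowest in wildtype 1. Of 16 matched genes 15 were lowest there under each scaling, against 36.7% of expressed genes. mki67, the Ki-67 antigen of cycling cells, stood at 752, 948 and 1250 CPM, and TOP2A, the topoisomerase of mitosis, at 247, 312 and 392 CPM. PCNA, the replication clamp, stood at 52.3, 158 and 180 CPM, a 3.44-fold range. CCNB2 was the exception, at 8.73, 7.29 and 4.13 CPM.

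The spread between libraries was widest among genes of low level. The median coefficient of variation over the 3 libraries was 49.3% for the 8599 genes between 1 and 10 CPM, where counting alone gives 12.9%, and 24.9% for the 7401 genes between 10 and 100 CPM, where counting gives 4.79%. For the 1214 genes between 100 and 1000 CPM it was 19.5%, and for the 62 genes at 1000 CPM or more 18.5%. The share of genes whose highest library was at least 2 times the lowest was 68.6%, 29.1%, 18% and 22.6% over these 4 levels, so it was not lowest at the top level. Over all expressed genes that share was 47.9%, and the highest library was at least 4 times the lowest for 19.2%.

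Wildtype 2 and 3 were the closest pair by correlation, by genes within 2-fold and by dispersion, although their median log2 difference, -0.20, was larger in size than those of the other pairs, 0.12 and -0.08. Of the expressed genes 75.6% lay within 2-fold between them, against 68.3% and 67.7% for the pairs with wildtype 1. The biological coefficient of variation that edgeR estimated was 40.6% from wildtype 2 and 3, 55.5% from wildtype 1 and 2, 56.2% from wildtype 1 and 3, and 52.6% from all 3. Chi-square per degree of freedom was 46.1, 113 and 127 for the pairs, which bears only on whether a library had been deposited a second time, and none had.

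**Figure D4:**
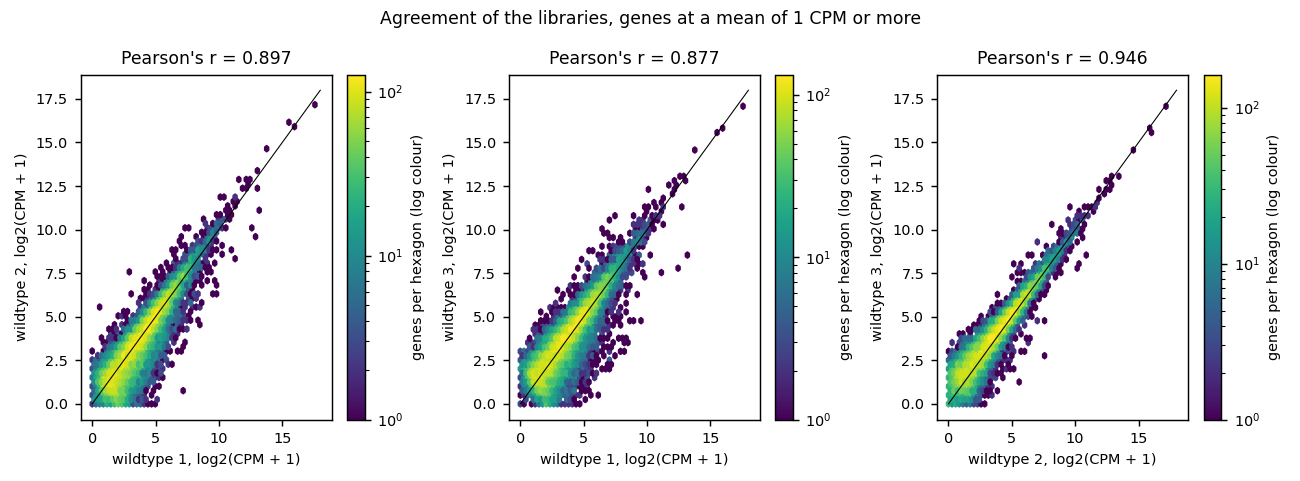
Log2(CPM + 1) of each pair of wildtype libraries over the 17276 genes at a mean of 1 CPM or more, with colour for genes per hexagon and the line of equality. The cloud is narrowest for wildtype 2 and 3 (r = 0.946), and tails towards wildtype 1 show in the other pairs.

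Genes that stood out in a single library were mostly those of wildtype 1. Of 11551 genes at a mean of 5 CPM or more, 260 were at least 4-fold higher in wildtype 1 than in the middle library, against 2 in wildtype 2 and 13 in wildtype 3. The first in wildtype 1 was sst1.2, a somatostatin gene of the endocrine pancreas, with 629, 2 and 2 counts. sst2, another somatostatin gene, had 399, 0 and 0 counts, and ins, the insulin gene, 508, 0 and 22 counts. Others were the glutamate transporter SLC1A3 (ENSDARG00000043148), the GABA transporter SLC6A11, the neuropeptide gene adcyap1b and VSX1, with si:dkey-9l20.3, ftr86 and ENSDARG00000017217. A mean of 5 CPM can be reached through a single library, and all of these genes reached it only through wildtype 1.

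In wildtype 2, ENSDARG00000100881 and fasn2, a fatty acid synthase gene, were the only genes past 4-fold. They stood at 6.52, 198 and 5.30 CPM and at 0.510, 49.8 and 1.34 CPM. The next were gata1b, at 7.09, 26.8 and 7.28 CPM, stoml3a, il11a and the apelin gene APLN, with drl, a marker of blood and vessel mesoderm in zebrafish, at 1.98, 17.1 and 6.17 CPM. In wildtype 3 the first were GNAT2, the cone transducin, at 1.53, 0.765 and 13.8 CPM, and the matrix gene POSTN (ENSDARG00000043806). Next came ENSDARG00000104308, 1 of the short unnamed genes beside zgc:158463, with 87 bases. sele, a selectin of activated endothelium, followed at 1.36, 2.94 and 19.7 CPM. Of the first 200 genes ranked by the ratio of the highest to the middle library, 191 were highest in wildtype 1. Among all 11551 genes so ranked, 4156 were highest in wildtype 1.

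**Figure D5:**
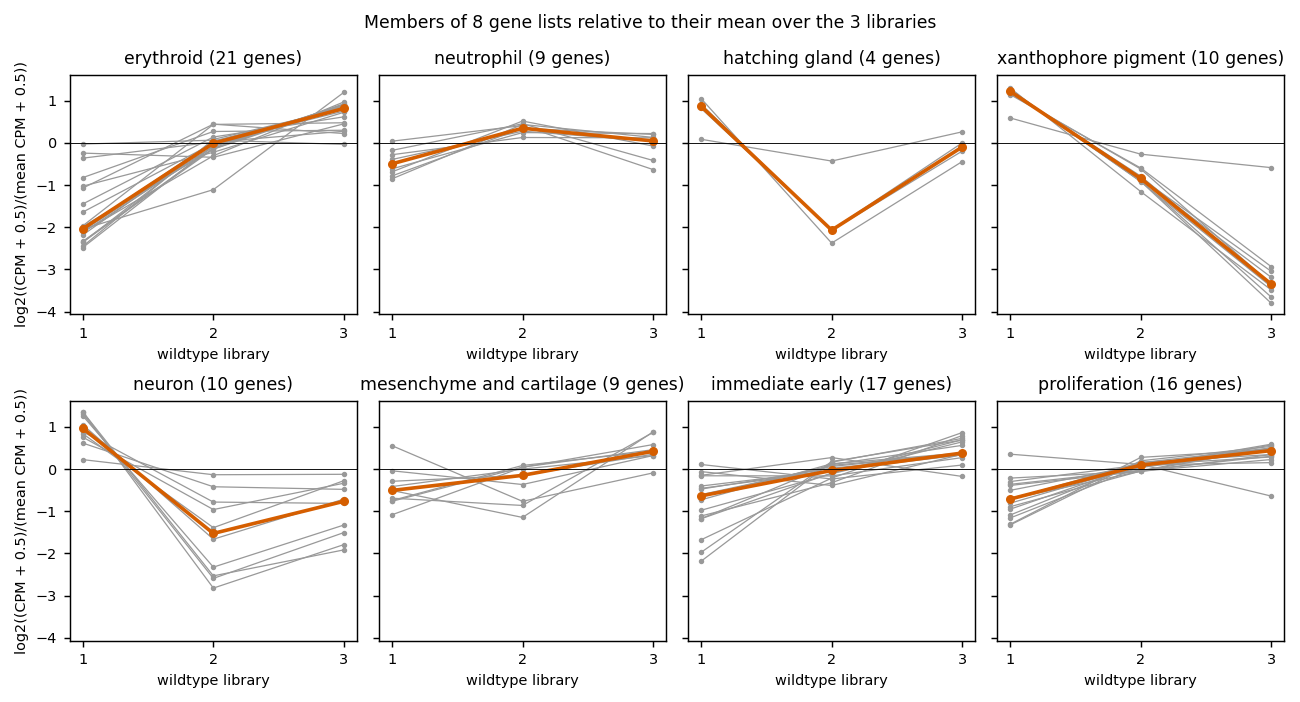
Log2 of CPM + 0.5 over mean CPM + 0.5 in each wildtype library for the expressed members of 8 lists, with members in grey and their median in orange. Erythroid and proliferation genes lie lowest in wildtype 1, neutrophil genes highest in wildtype 2, hatching gland genes lowest in wildtype 2, and xanthophore and neuron genes highest in wildtype 1.

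Genes of skin surface, hatching gland, pigment cells, neurons and matrix were measured beside the blood genes in each library, and their part in the order of the blood genes between libraries was not tested. Without wildtype 1, the erythroid sum of wildtype 3 was 1.69 times that of wildtype 2, the hatching gland sum 3.88 times, and the pigment sum of wildtype 2 was 4.72 times that of wildtype 3, while the summed levels of the stem, thrombocyte and neutrophil lists differed by 1.05, 1.15 and 1.11 times. The neutrophil sum was mostly lyz, and without lyz it was 12961 CPM in wildtype 2 and 9717 CPM in wildtype 3.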

How the data were processed

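RNA of cd41-positive cells was extracted with a Zymo kit and made into low-input libraries at BGI, per the labels' protocols. The deposited values are whole-number counts of read pairs per gene, which the authors made with featureCounts 1.5.0-p1 (pairs with both ends mapped, chimeric pairs left out, no strand option) on Ensembl release 85 of GRCz10, per the file headers. Cufflinks 2.2.1, STAR 2.4.2a, Picard, DESeq2 and Trim Galore also appear, per the submitters' processing notes, with no role stated. Without strand, reads of overlapping genes on opposite strands cannot be told apart.

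From these counts, CPM (over the total of all genes) and CPM per kb (over the deposited exon length) were computed for the 3 wildtype libraries, with ± SD over libraries. No p-value was computed. Symbols came from a table of Ensembl names (26269 of 32105 genes), many of them upper-case orthologue symbols, and one that several genes carry is followed by the Ensembl ID. mt-rnr1 and mt-rnr2 were named from RefSeq entries of the same start and end (GRCz12tu), as all 37 mitochondrial genes coincided. Of 435 entries in 34 lists, 340 matched by symbol and 32 by orthologue symbol, 42 were ambiguous and 20 not matched. TMM and relative log expression factors and the biological coefficient of variation came from edgeR 4.0.16 in R 4.3.3, and the scripts were tested on simulated data. Named genes were the 20 first by each ranking, the 5 defining markers, members of the blood lists, the 6 highest members per kb of other lists, both copies of duplicated genes and the 10 first genes standing out in each library, while others were chosen after their values were seen. Members and lists were chosen with earlier results of these data known, and 8 lists (xanthophore, heat shock, immediate early, inflammatory cytokine, pancreatic endocrine, germ cell, fin fold and actin genes) after the values here were seen.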

Additional observations from a re-analysis of the deposited data

How the results depend on the processing

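No paired analysis was possible because the report makes no comparison between groups and its results come from no test. The number of genes at a mean of 1 CPM (17276) was 26228 when a single count in any library sufficed, and 16693 to 17654 when each library was left out in turn. The mitochondrial share (24.1%) ranged from 22.4% to 25.5% with a library left out. The mean pairwise r (0.907) became 0.871 over genes at 10 CPM or more, 0.954 with no filter and 0.868 with a pseudocount of 0.1, and ranged from 0.878 to 0.942 with a library left out. Of 34 lists, 16 had a highest library at least 2 times the lowest, and 5 without wildtype 1, the range with a library left out being 5 to 14. Of the 100 genes first by CPM per kb, 96 to 99 were kept with a library left out and 100 under each scaling. TMM factors moved the median log2 level by -0.02, 0.11 and -0.10 in wildtype 1, 2 and 3. The share of expressed genes lowest in wildtype 1 was 36.7% in CPM of total counts. It was 38.1% with TMM factors, 37.5% with relative log expression factors and 32.2% without mitochondrial counts. Leaving mitochondrial counts out of the totals raised the median log2 level by 0.43, 0.35 and 0.32 and moved 16 of 34 list sums by over 1 SD. Depth limits the comparison of itga2b between wildtype 2 and 3, whose intervals overlap. The 3 intervals of RUNX1 did not overlap in CPM of total counts. Those of wildtype 1, up to 1.82 CPM, and wildtype 2, from 1.83 CPM, nearly met, and intervals under other scalings were not computed.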

Other observations

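Genes of 8 further lists, chosen after the values were seen, described what else was measured in these libraries. Genes of xanthophores, the yellow pigment cells, summed to 7763, 1616 and 395 CPM in wildtype 1, 2 and 3. gch2, which is also in the pigment and neural crest list, made 72.7% of this. Without gch2 the sums were 1930, 554 and 184 CPM. All 10 xanthophore genes were highest in wildtype 1 and lowest in wildtype 3, where 38.2% and 22.9% of expressed genes were. PTS, an enzyme of pteridine synthesis, stood at 511, 123 and 26.1 CPM, and XDH, which acts later in that pathway, at 234, 52.1 and 7.28 CPM. Pancreatic endocrine genes summed to 138, 24.3 and 23.6 CPM, but NEUROD1, also a gene of neurons, made 50.1% of this, and without it the sums were 90.1, 1.18 and 1.46 CPM. The sums were highest in wildtype 3 for germ cell genes, at 9.18, 26.2 and 70.7 CPM, with NANOS3 at 1.93, 6.06 and 20.3 CPM and DDX4 at 2.1, 5.0 and 20.6 CPM.

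Immediate early genes, which cells switch on within a short time of a stimulus, were high in each library. They summed to 3311, 4880 and 6879 CPM, and 15 of 17 were highest in wildtype 3, where 41.4% of expressed genes were. FOS stood at 128, 222 and 482 CPM, and NR4A1, a nuclear receptor of this class, at 85.8, 383 and 546 CPM. Heat shock genes summed to 8323, 14486 and 16134 CPM, and wildtype 2 rather than 3 was highest under some scalings. hsp70l, at 1151, 3775 and 4806 CPM, made 25.0% of this sum. Other leading members ranged less, with HSP90AB1 at 2397, 2968 and 2772 CPM and HSP90AA1 at 2012, 1817 and 1901 CPM. Among inflammatory cytokines 11 of 12 genes were lowest in wildtype 1, where 36.7% of expressed genes were, and il1b, the interleukin-1β gene, stood at 163, 1122 and 822 CPM. Fin fold and dermal matrix genes summed to 2122, 3300 and 4877 CPM, led by KERA, which encodes keratocan, at 713, 1138 and 1517 CPM. Actin cytoskeleton genes summed to 8468, 11577 and 12326 CPM, the highest library changing with the scaling. Of these 10 genes 9 were lowest in wildtype 1, where 36.7% of expressed genes were.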
